A study of Mus musculus with 10 samples.

Results

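The ileum of aged mice was set against the ileum of young adult mice, gene by gene, as the log2 difference between 2 of the 10 arrays of the series. The first array held RNA from 28-month-old mice and the second RNA from 4-month-old mice. Of 18194 genes named by the arrays, 12513 gave a signal above the background level in ileum at either age and are described here. They were divided by a gradient that did not use the ileum arrays. A gene was called ungraded where its mean signals in jejunum and distal colon, over both ages, differed by less than 2-fold, and graded where they differed by 2-fold or more. There were 10677 ungraded genes (85.3%) and 1836 graded genes (14.7%), of which 764 were higher in jejunum and 1072 higher in distal colon. No age difference in ileum entered the grading, but the means take in the jejunum and distal colon arrays of both ages.

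The 28-month group was a pool of ileum RNA, in equal amounts, from 9 male ICR mice, and the 4-month group was a pool from 6 male ICR mice. ICR is an outbred stock, so the pools differ in the genotypes they hold as well as in age. The 28-month mice were bought at 8 months and the 4-month mice at 2 months, and all were kept singly under specific-pathogen-free conditions on the purified AIN-93 diet. The protocol given for the 28-month jejunum, ileum and distal colon arrays also describes mice fed yogurt, and the titles of these arrays name no diet. The number of mice stated for the series, 9, is that of the controls without yogurt. The 28-month gut arrays thus carry another protocol text than the 7 other arrays. A difference in how these arrays were prepared, if there was one, and age cannot be told apart in any gut segment. Jejunum, distal colon, liver and spleen came from the same animals and were pooled in the same way. Each pool was read on 1 Affymetrix Mouse Genome 430 2.0 array, which measures a transcript by sets of short probes near its 3' end. With 1 array a side, no difference has a replicate check, no p-value is given, and a gene is said to have risen or fallen where it passed 2-fold. Signals are in arbitrary units on arrays scaled to a common mean, and signals below a floor of 111 units, the median of all signals, were raised to it, so that a fold with 1 age below the floor is a lower bound. Differences are 28 minus 4 months on the log2 scale.

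The ileum is the last stretch of the small intestine. The epithelium of the upper small intestine digests and absorbs fat, sugar and protein, while the ileum reclaims bile acids through the apical carrier Slc10a2, the cytosolic carrier Fabp6 and the basolateral exporter Slc51a-Slc51b. Bile acids in the ileal cell activate the receptor Nr1h4, which induces the hormone Fgf15, and Fgf15 reports to the liver that bile acids have returned. Many genes rise or fall gradually along the gut, so the profile of a piece of ileum depends on where it was cut as well as on the state of its cells.

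Both arrays carried the defining markers of ileum. Of the 11 measured ileum markers 10 were brighter at 28 months. Their summed signal over the 11 was 109946 units at 28 months and 70344 units at 4 months. The 3 that rose past 2-fold were Fgf15, Slc10a2 and Pyy. Pyy is a hormone gene of L cells, which increase toward the colon, and Guca2a is also on the goblet cell list. These 2 markers are thus not particular to ileum. Fabp6 gave 35830.5 units in ileum at 28 months and 20178 units at 4 months, against at most 429 units in jejunum and distal colon. The 4-month ileum also carried genes of the upper small intestine at the level of the jejunum arrays, and the 28-month ileum carried them at far lower levels. Over the 12513 measured genes, the log2 signals of ileum and jejunum had a Pearson r of 0.941 at 28 months and 0.979 at 4 months, and those of ileum and distal colon had an r of 0.902 at 28 months and 0.858 at 4 months. These are descriptions over genes, which are not independent replicates. The jejunum pools differed as well, and they carried transcripts of the exocrine pancreas at both ages, such as trypsinogen Prss2 at 9373 units at 28 months and 9454 units at 4 months, against 102 and 143 units in ileum at those ages. Cubn, an ileal receptor that takes up the vitamin B12 complex, gave 73.1 units in jejunum at 28 months and 3631 units at 4 months, and the 11 ileum markers had a median difference of -0.60 in jejunum. With 1 pool per age, the age of the mice and the place along the gut from which the segments were cut cannot be told apart. In whole tissue, fewer cells of a type and less RNA per cell cannot be told apart either. The 3' to 5' ratio of the beta-actin control, a measure of RNA integrity, was 0.66 (log2) on the 28-month ileum array and 0.59 on the 4-month array, against 0.82 to 1.12 on the jejunum and distal colon arrays.

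Ungraded genes differed little between the ages. Their median difference was 0.02, with 90% of them between -0.43 and 0.46. Of the 10677, 72 passed 2-fold (0.674%). Of these, 40 rose (0.375%) and 32 fell (0.3%). Over all 12513 measured genes, 314 passed 2-fold (2.51%), 106 rose (0.847%) and 208 fell (1.66%). Below 0 lay 47.3% of ungraded genes and 46.3% of all measured genes. The share of genes past 2-fold was larger where the gradient was steeper, even among ungraded genes. It was 0.372% of the 4841 genes whose jejunum and distal colon means lay within 0.25 (log2) of each other, and 2.52% of the 994 genes that lay 0.75 to 1 apart. It reached 6.46% of the 1331 genes with a gradient of 1 to 2, 27.3% of the 403 genes with a gradient of 2 to 4 and 45.1% of the 102 genes beyond 4.

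**Figure D1:**
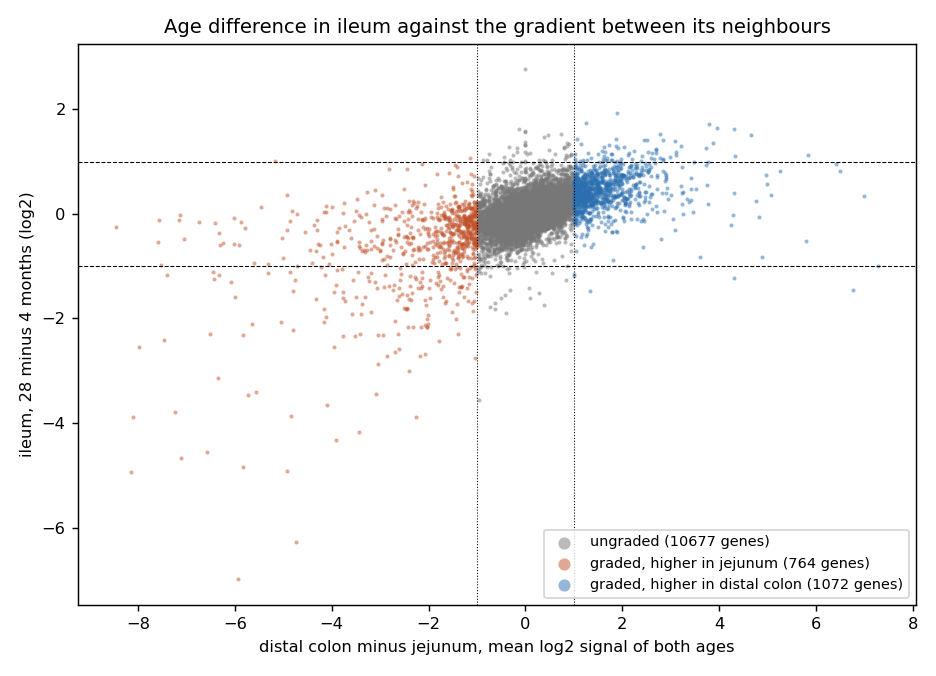
Each point is 1 of 12513 genes measured in ileum. The horizontal axis is the distal colon mean minus the jejunum mean (log2 signal, mean of both ages) and the vertical axis is ileum at 28 minus 4 months (log2). Vertical dotted lines mark the 2-fold grading limit and horizontal dashed lines 2-fold between ages. Genes on the jejunum side lie mostly below 0, with 171 of 764 past 2-fold lower, and genes on the distal colon side mostly above 0, with 64 of 1072 past 2-fold higher.

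The ungraded gene with the largest rise was Fgf15. Its signal was 1419 units in ileum at 28 months and 209.6 units at 4 months, 6.77-fold higher, while jejunum and distal colon gave at most 60.6 units at either age, below the floor. Slc10a2, the sodium-dependent carrier that takes bile acids into the ileal cell, gave 3856 units in ileum at 28 months and 1401 units at 4 months, 2.75-fold higher. Both genes are read by 1 measured probe set each. Both count as ungraded because they peak in the ileum and are low on either side of it. The same holds for others of the 40 ungraded genes that rose. In 12 of them the ileum mean lay 2-fold or more above both neighbours, and 7 were measured in neither neighbour.

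Of the other 10 bile acid genes, 6 were brighter at 28 months by less than 2-fold and 4 were dimmer. Nr1h4, the bile acid receptor FXR, gave 4010.3 units in ileum at 28 months and 2153 units at 4 months, a difference of 0.90. Its target Nr0b2, a repressor of nuclear receptors, differed by 0.78. Fabp6, the carrier in the cytosol, differed by 0.83, and the 2 chains of the basolateral exporter, Slc51a and Slc51b, differed by 0.85 and 0.89. Cyp27a1, the sterol 27-hydroxylase of the acidic pathway of bile acid synthesis, fell, with 1209 units in ileum at 28 months and 2657 units at 4 months, 2.20-fold lower. The nuclear receptors Nr1i2 and Vdr differed by -0.54 and -0.18. Abcc2, an apical exporter of conjugates, also fell, with 664 units at 28 months and 1405 units at 4 months. Of the 12 measured genes of bile acid uptake and signalling, 2 rose, 2 fell and the median difference was 0.80, beside a median of 0.03 over all measured genes. The 7 ungraded members had a median of 0.04 and the 5 graded members 0.83. Slc10a2, Fabp6, Slc51a, Slc51b, Fgf15 and Nr1h4 are also among the ileum markers, so the 2 lists are not separate observations. In jejunum the median of the same 12 genes was -0.03, and in distal colon it was -0.18.

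Genes of cholesterol synthesis were brighter together at 28 months. These enzymes build cholesterol from acetyl-CoA through mevalonate, squalene and lanosterol, and their genes are switched on by the factor Srebf2 when sterol in the cell is low. All 20 measured members were ungraded and lay above 0, from 0.00 for the isomerase gene Ebp to 1.12 for Fdft1, with a median of 0.83. Of all ungraded genes, 47.3% lay below 0. Members that rose 2-fold numbered 4, of which Fdft1, squalene synthase, had 4580.4 units in ileum at 28 months and 2105 units at 4 months, 2.18-fold higher. Both of its measured probe sets rose, by 1.12 and 1.00. Cyp51, which removes the 14-alpha methyl group of lanosterol, had 2725 units at 28 months and 1253 units at 4 months, 2.18-fold higher. Sqle, squalene epoxidase, had 3975 units at 28 months and 1942 units at 4 months, 2.05-fold higher. The regulator Srebf2 itself had 1222 units at 28 months and 605 units at 4 months, 2.02-fold higher. Its second measured probe set, at 806 units at 28 months and 646 units at 4 months, differed by 0.32. The brightest member, Hmgcs1, which makes HMG-CoA, gave 13326 units at 28 months and 7290.5 units at 4 months, a difference of 0.87 with an SD of 0.26 over its 5 measured probe sets. The list also lay above 0 in the neighbours, with medians of 0.27 in jejunum and 0.50 in distal colon. The segments come from the same mice, so they are not independent replicates. Srebf1, the sister factor that drives fatty acid synthesis, moved the other way. It had 1701 units in ileum at 28 months and 4570.2 units at 4 months, 2.69-fold lower, and 1823 units in jejunum at 28 months and 3663 units at 4 months.

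Promoters of these genes were read because the genes moved together. RefSeq promoter sequences on mouse build GRCm38.p6, from 250 bases before to 50 bases after the start of a gene, were at hand for 16 of the 20. Each of the 16 held CCAAT, the box bound by the factor NF-Y, on either strand in at least 1 listed promoter, against 42.1% of the 10076 measured genes with a promoter sequence. The sequence TCACNCCAC, the core of a classical sterol regulatory element, was held by 1 of the 16, Hmgcs1, against 1.39% of measured genes. Both strands were searched and these 2 motifs do not overlap each other in the windows shown. A match is only a match of letters and was not tested for binding. The promoters of Hmgcs1, the brightest member, Cyp51, one of the 2 with the largest rise, and the regulator Srebf2 are shown, in lower case with the matches in capitals, 5' to 3' on the strand of the gene. The CCAAT box reads ATTGG where it lies on the other strand. The Hmgcs1 window is chr13:119690101-119690400 on the plus strand, with 4 CCAAT matches on the other strand and 1 TCACNCCAC match. The Cyp51 window is chr5:4104648-4104947 on the minus strand, and the Srebf2 window is chr15:82147019-82147318 on the plus strand, with 1 CCAAT match each.
Hmgcs1: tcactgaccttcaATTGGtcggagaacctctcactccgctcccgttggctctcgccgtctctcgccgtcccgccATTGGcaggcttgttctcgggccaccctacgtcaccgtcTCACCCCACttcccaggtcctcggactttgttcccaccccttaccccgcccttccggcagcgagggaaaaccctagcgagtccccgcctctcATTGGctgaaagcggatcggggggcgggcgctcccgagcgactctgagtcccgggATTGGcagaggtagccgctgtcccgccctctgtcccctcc
Cyp51: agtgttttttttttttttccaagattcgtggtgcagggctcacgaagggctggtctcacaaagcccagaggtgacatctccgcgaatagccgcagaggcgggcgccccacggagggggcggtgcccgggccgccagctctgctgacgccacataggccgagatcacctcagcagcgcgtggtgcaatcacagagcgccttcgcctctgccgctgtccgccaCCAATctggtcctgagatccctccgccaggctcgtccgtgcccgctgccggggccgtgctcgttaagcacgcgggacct
Srebf2: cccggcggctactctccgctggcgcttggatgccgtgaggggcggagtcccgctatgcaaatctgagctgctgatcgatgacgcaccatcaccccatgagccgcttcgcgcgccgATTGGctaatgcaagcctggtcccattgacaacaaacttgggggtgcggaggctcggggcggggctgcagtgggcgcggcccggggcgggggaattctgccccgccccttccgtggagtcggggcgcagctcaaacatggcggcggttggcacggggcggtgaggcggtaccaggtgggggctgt

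Position genes of the Hox clusters, which mark levels along the body axis, were among the ungraded genes that rose. Hoxc8 gave 915 units in ileum at 28 months and 308 units at 4 months, 2.97-fold higher, and at most 34.3 units in jejunum and distal colon. Hoxb6 gave 506 units in ileum at 28 months and 178 units at 4 months, 2.84-fold higher. Hoxb9 gave 399 units in ileum at 28 months and 162 units at 4 months, 2.46-fold higher. Each was read by 1 measured probe set and each was brighter in the 28-month ileum than on any jejunum or distal colon array. Of the 18 measured homeobox and gut identity factors 12 lay above 0, Hoxb5 and Hoxd8 among them at 0.91 and 0.88, and 6 lay below 0. Hoxa5 differed by -0.41 and Hoxa9 by -0.18. Gata4, the factor that sets upper small intestine identity, fell to 108 units in ileum at 28 months, against 552 units at 4 months. Cdx2 and Cdx1, which set intestinal identity, differed by 0.58 and 0.45. Of the 18, 3 rose and 1 fell past 2-fold.

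Other ungraded genes that peak in the ileum and rose were Me3, a mitochondrial malic enzyme, with 388 units in ileum at 28 months and 149.6 units at 4 months, and Suox, sulfite oxidase, with 7799 units at 28 months and 3531 units at 4 months. Plb1, an intestinal phospholipase, gave 276 units at 28 months and a signal at the floor at 4 months, at least 2.50-fold higher, and Plscr2, a phospholipid scramblase, was at least 2.88-fold higher. Cldn2, the claudin that forms cation and water pores in leaky epithelium, came just short of 2-fold, with 5731 units in ileum at 28 months and 2905 units at 4 months.

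Some ungraded genes that rose encode pumps, enzymes and signals of the epithelium. Abcb1a, the apical P-glycoprotein that pumps drugs and toxins back into the lumen, gave 11198 units in ileum at 28 months and 4452 units at 4 months, 2.52-fold higher, and its 2 probe sets differed by an SD of only 0.06. Jejunum and distal colon did not share this rise, with differences of -0.20 and -0.47. Ddah1, which breaks down an inhibitor of nitric oxide synthase, gave 2471 units in ileum at 28 months and 1036 units at 4 months, 2.38-fold higher. All 4 of its measured probe sets rose by 1.13 to 1.31, and the ileum arrays at both ages were above all 4 jejunum and distal colon arrays. Ereg, an EGF-family ligand, gave 1405 units in ileum at 28 months and 585 units at 4 months. Car12, a membrane carbonic anhydrase, gave 1509.7 units at 28 months and 619 units at 4 months. Retnlb, a goblet cell protein made against worms and bacteria, gave 11024 units at 28 months and 4762 units at 4 months, 2.32-fold higher. In jejunum Retnlb gave 6855 units at 28 months and 3543 units at 4 months, and in distal colon 5429.9 units at 28 months and 8892 units at 4 months, so the segments did not move alike. Mid1, an X-linked microtubule-binding ubiquitin ligase, gave 374 units in ileum at 28 months and 122 units at 4 months, 3.07-fold higher, and in jejunum 449.8 units at 28 months and 152 units at 4 months.

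**Figure D2:**
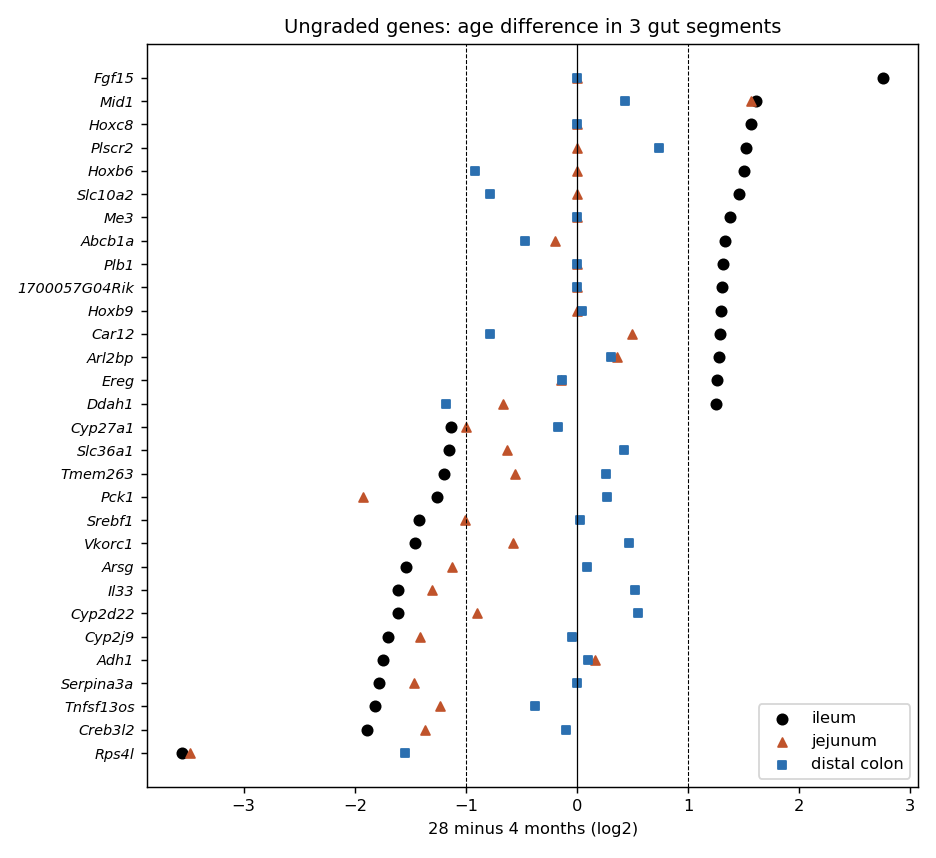
Differences between 28 and 4 months (log2, horizontal axis) of 30 ungraded genes, the 15 largest in each direction by the rule for named genes, in ileum (circles), jejunum (triangles) and distal colon (squares). A marker at 0 is a gene below the floor at both ages in that segment or one that did not differ. Dashed lines mark 2-fold. Fgf15 reached 2.76 in ileum, and Rps4l fell in all 3 segments.

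Of the 40 ungraded genes that rose in ileum, 6 were 1.5-fold or more higher in both jejunum and distal colon. The share of all ungraded genes higher in all 3 segments was not computed, and 7 of the 40 were measured in neither neighbour. Of the 28 that were measured in jejunum, 8 were 1.5-fold or more higher there too (28.6%, against 1.77% of all ungraded genes measured in both), and 2 were 1.5-fold lower (against 1.57%). Of the 32 measured in distal colon, 8 were higher (25%, against 1.88%) and 6 were lower (against 1.14%). The 6 genes higher in all 3 segments were Fdft1, Sqle and Srebf2, described above, Gm10451, a predicted gene, and 2 receptors of immune cells. Il7r, the interleukin 7 receptor of lymphocytes, gave 619 units in ileum at 28 months and 281 units at 4 months, 2.20-fold higher. It gave 485 units in jejunum at 28 months and 283 units at 4 months, and 614 units in distal colon at 28 months and 237 units at 4 months. Il18r1, a chain of the interleukin 18 receptor, gave 488 units in ileum at 28 months and 239 units at 4 months, 2.04-fold higher. The T cell markers Cd3d, Cd3e and Cd3g differed by -0.28, -0.32 and -0.20 in ileum. The part of T cell number in these differences was not tested. In liver 5 of the 21 measured there were 1.5-fold higher (23.8%, against 3.08% of ungraded genes measured in both). They were Mid1, Slc10a2 and the cholesterol synthesis genes Cyp51, Fdft1 and Sqle.

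Ungraded genes that fell had more in common with the jejunum. Of the 32 genes, 16 were 1.5-fold or more lower in jejunum as well (50%, against 1.57% of ungraded genes measured in both), and none was 1.5-fold higher there. In distal colon 1 of the 28 measured was lower (3.57%, against 1.14%), and in liver 2 of the 27 measured (7.41%, against 0.407%). The jejunum and distal colon arrays of both ages also enter the grading, so shares in these segments, for rises and falls, are not independent of it. The count of ungraded genes that fell depends on which arrays grade the genes. It was 20 when the 4-month jejunum and distal colon arrays alone were used and 54 with the 28-month arrays alone. In 24 of the 32 the jejunum mean was above the distal colon mean.

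Rps4l had the largest fall of any ungraded gene. It is a paralogue of the ribosomal protein gene Rps4x, and probes for it may also read near-identical copies. It gave 70.0 units in ileum at 28 months, below the floor, and 1299.7 units at 4 months, at least 11.7-fold lower. It gave 101 units in jejunum at 28 months and 1235 units at 4 months, and 77.5 units in distal colon at 28 months and 323 units at 4 months. Liver and spleen differed by -1.99 and -0.70, so the gene was dimmer at 28 months in all 5 tissues. With a gradient of -0.97 between jejunum and distal colon, it lies near the grading limit.

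Creb3l2, a membrane-bound transcription factor of the secretory pathway, was next. It gave 486 units in ileum at 28 months and 1806 units at 4 months, 3.71-fold lower, with an SD of 0.10 between its 2 probe sets. In jejunum it gave 616 units at 28 months and 1589 units at 4 months, while distal colon differed by -0.10. Il33, an alarm cytokine held in the nucleus of epithelial and stromal cells, followed the same course. It gave 263 units in ileum at 28 months and 800.1 units at 4 months, 3.05-fold lower, and 326 units in jejunum at 28 months and 804 units at 4 months, with a difference of 0.52 in distal colon. Adh1, an alcohol and retinol dehydrogenase, was low in neither neighbour. It gave 4759 units in ileum at 28 months and 15987 units at 4 months, 3.36-fold lower, and between 18287 and 26117 units on the 4 jejunum and distal colon arrays. The 28-month ileum array was thus the only low one of the 6.

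The cytochromes P450 Cyp2d22 and Cyp2j9 fell, Cyp2d22 to 408 units in ileum at 28 months against 1245 units at 4 months, and Cyp2j9 to 121 units at 28 months against 393 units at 4 months. Vkorc1, which recycles vitamin K, gave 1693 units at 28 months and 4639 units at 4 months, 2.74-fold lower. Pck1, the rate-limiting carboxykinase of gluconeogenesis, gave 1163 units at 28 months and 2792 units at 4 months, 2.40-fold lower with an SD of 0.07 between its 2 probe sets. It gave 547 units in jejunum at 28 months and 2074 units at 4 months, a larger difference than in ileum. The graded genes of the same pathway moved with it. G6pc, which frees glucose from glucose 6-phosphate, gave 598 units in ileum at 28 months and 1981 units at 4 months, and its partner transporter Slc37a4 gave 1154 units at 28 months and 2569 units at 4 months. Of the 7 measured genes of the gluconeogenesis list, 4 fell and none rose, with a median of -1.12. Khk, the ketohexokinase of fructose breakdown, is on the list though it is not an enzyme of gluconeogenesis. It is one of the 4 that fell and its difference, -1.12, is the median. Slc36a1, a proton-coupled amino acid carrier, and Arsg, a lysosomal sulfatase, were also lower in both ileum and jejunum. Kctd14, an adaptor of unsettled role, was the 1 ungraded gene that fell with 4 probe sets past 1.5-fold, at 608 units in ileum at 28 months and 1254 units at 4 months.

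Several pathways made mostly of ungraded genes stayed within 2-fold in every measured member. Genes of oxidative phosphorylation, which make ATP in mitochondria, were all dimmer at 28 months by a small amount. The 19 measured members lay between -0.52 and -0.16, with a median of -0.27, and those of jejunum and distal colon had medians of -0.04 and -0.02. The most shifted member, Sdhb, an iron-sulfur subunit of succinate dehydrogenase, gave 8038 units in ileum at 28 months and 11545 units at 4 months. Cell proliferation genes centred on 0, with a median of -0.01 over 22 members and none beyond 0.37 in size, while the same genes had a median of 0.46 in jejunum. Stem cell and Wnt genes had a median of 0.26. Lgr5, the stem cell receptor of the crypt base, gave 620.1 units in ileum at 28 months and 416 units at 4 months, a difference of 0.58, and Cd44, a Wnt target of crypt cells, differed by 0.71. CDK inhibitors and p53 targets, which include genes used as marks of cell arrest, had a median of 0.14 and none past 2-fold. Cdkn2b, an inhibitor of CDK4 and CDK6, gave 5922 units at 28 months and 4793 units at 4 months.

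Graded genes changed far more often. Of the 1836, 242 passed 2-fold (13.2%), of which 66 rose (3.59%) and 176 fell (9.59%). Direction followed the side of the gradient. Among the 764 genes higher in jejunum, 171 fell (22.4%) and 2 rose (0.262%). Among the 1072 genes higher in distal colon, 64 rose (5.97%) and 5 fell (0.466%). The median difference was -0.45 for the genes higher in jejunum, of which 84.4% lay below 0, and 0.44 for the genes higher in distal colon, of which 8.77% lay below 0.

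The level of each graded gene in ileum was placed on a scale set by its neighbours, and it could lie outside their range. On a scale where the jejunum mean is 0 and the distal colon mean is 1, the median position was 0.35 at 28 months and 0.04 at 4 months. The quartiles were 0.13 and 0.57 at 28 months, and -0.10 and 0.20 at 4 months. The position was higher at 28 months, in the direction of distal colon, for 1623 of the 1836 genes (88.4%). The shift was seen on both sides of the gradient. Genes higher in jejunum had a median position of 0.28 at 28 months and -0.03 at 4 months, and genes higher in distal colon had 0.37 at 28 months and 0.07 at 4 months. Between the arrays themselves, 700 measured genes differed 2-fold between ileum and jejunum at 28 months and 184 did at 4 months. Between ileum and distal colon, 1199 genes differed 2-fold at 28 months and 2017 did at 4 months.

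**Figure D3:**
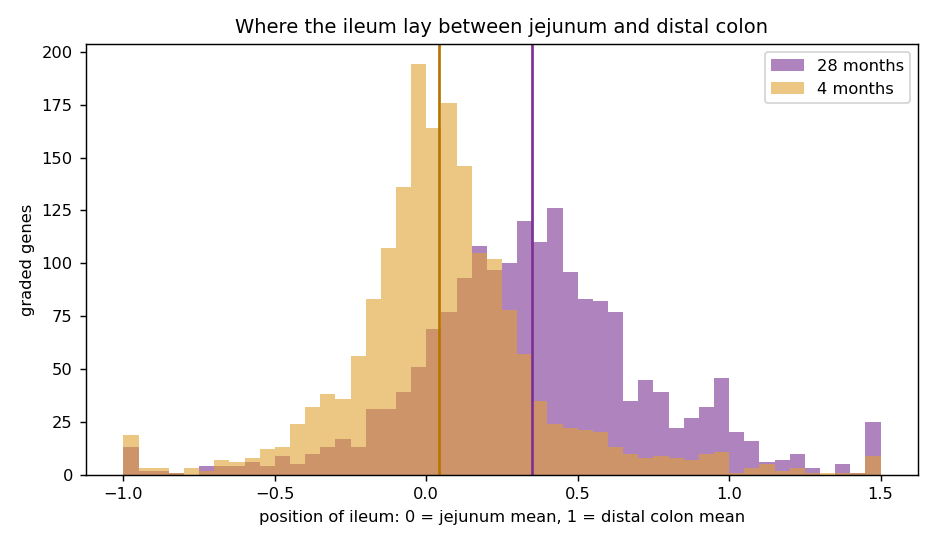
Histogram of the position of the ileum for 1836 graded genes at 28 months (purple) and 4 months (yellow). The horizontal axis runs from the jejunum mean (0) to the distal colon mean (1), with values outside the range gathered in the end bins, and the vertical axis counts genes. Vertical lines mark the medians, 0.35 at 28 months and 0.04 at 4 months.

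Many of the graded genes that fell most belong to the absorptive epithelium of the upper small intestine. Lct, lactase, gave 92.1 units in ileum at 28 months, below the floor, and 14054 units at 4 months, at least 127-fold lower. In jejunum Lct gave 3600.4 units at 28 months and 12629 units at 4 months, so the 4-month ileum was above both jejunum arrays. Fabp1, the fatty acid carrier of upper enterocytes, gave 1017 units in ileum at 28 months and 31032 units at 4 months, 30.5-fold lower, and its 2 probe sets differed by -4.93 and -4.49. Fabp1 was high in both jejunum pools, at 28777 units at 28 months and 33770.3 units at 4 months. Slc2a2, the basolateral glucose and fructose carrier, gave 728 units in ileum at 28 months and 6447 units at 4 months. All 15 proximal small intestine markers were dimmer in ileum at 28 months and 12 fell, with a median of -3.15, while in jejunum their median was -0.34. Their summed signal was 41812 units at 28 months and 194878 units at 4 months.

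Within digestion and uptake, the fall was uneven. Of the 19 fat absorption and lipoprotein genes, 9 fell, and the list ranged from -4.93 to 0.01. Apoc2, the cofactor of lipoprotein lipase, gave 806 units in ileum at 28 months and 20402 units at 4 months, 25.3-fold lower. Apoa4, an apolipoprotein of chylomicrons, gave 5978 units at 28 months and 35041 units at 4 months, 5.86-fold lower. In contrast Apoa1, the main protein of HDL, differed by -0.26, and Fabp2, the second fatty acid carrier of the enterocyte, by 0.01, with 37249 units at 28 months and 37025 units at 4 months. Of the 18 sugar, peptide and amino acid transporters, 8 fell. They included the folate carrier Slc46a1, at 142 units at 28 months and 1038 units at 4 months, and the lactate carrier Slc5a12, at 209.97 units at 28 months and 3102 units at 4 months. The neutral amino acid carrier Slc6a19 differed by 0.12, and Slc34a2, the ileal phosphate carrier, by 0.70.

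Brush border hydrolases split by segment. Enpp3, an ectonucleotidase, gave 870.2 units in ileum at 28 months and 12675 units at 4 months, 14.6-fold lower. Of its 4 measured probe sets 3 fell, with differences from -4.14 to -3.86. The dimmest, at 32.1 units at 28 months, below the floor, and 187 units at 4 months, had a difference of -0.76. Ace, the angiotensin-converting dipeptidase, gave 863 units at 28 months and 5372 units at 4 months. Mep1a, the alpha subunit of meprin, rose instead, with 11892 units in ileum at 28 months and 5743 units at 4 months, 2.07-fold higher. Naaladl1, a peptidase of the ileal brush border, differed by 0.75, while Anpep, Enpep, Mep1b and Dpp4 stayed between 0.04 and 0.16. Of the 14 measured hydrolases, 6 fell and 1 rose.

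The hormone genes past 2-fold split by where along the gut their cells are most common. Gip, made by K cells of the upper small intestine, gave 229 units in ileum at 28 months and 6588 units at 4 months, 28.8-fold lower, and it gave 5964 units in jejunum at 28 months and 6633 units at 4 months. Cck and Ghrl, also upper gut hormones, fell to 304 and 125 units at 28 months, against 929 and 331 units at 4 months. Hormones of L cells, which increase toward the colon, rose. Gcg, the precursor of GLP-1, gave 5474 units at 28 months and 2708 units at 4 months, 2.02-fold higher. Pyy gave 2568 units at 28 months and 1041 units at 4 months, 2.47-fold higher, and Insl5 gave 332 units at 28 months and 117 units at 4 months, 2.83-fold higher. General endocrine markers stayed close to 0, with Chga at -0.17 and Chgb at -0.14. Of the 17 measured hormone and endocrine genes 3 rose and 3 fell. The others, the hormone genes Sct and Nts among them, stayed within 2-fold.

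Some detoxifying enzymes fell as well. Cyp3a11, the main cytochrome P450 of mouse intestine for drugs, gave 1135 units in ileum at 28 months and 15664 units at 4 months, 13.8-fold lower, and 15393 units in jejunum at 28 months and 17913 units at 4 months. Ugt2a3, a glucuronosyltransferase, gave 86.0 units in ileum at 28 months, below the floor, and 3355 units at 4 months, at least 30.3-fold lower. Of the 24 measured xenobiotic genes 5 fell and 2 rose, Abcb1a and the carboxylesterase Ces1g. Other graded genes with large falls were Dnase1, a secreted DNA nuclease, Reg1, a secreted lectin of the upper gut, Leap2, an antimicrobial peptide that also blocks the ghrelin receptor, and Afp, alpha-fetoprotein. Dnase1 gave 161 units in ileum at 28 months and 12419 units at 4 months, 77.2-fold lower, and it also differed by -3.25 in jejunum. Leap2 gave 686 units at 28 months and 7626 units at 4 months. Of the 173 graded genes that fell in ileum and were measured in jejunum, 64 were 1.5-fold lower there too (37%, against 11.4% of all graded genes measured in both), and 2 were higher. In distal colon 6 of the 113 measured were 1.5-fold lower (5.31%, against 9.13%). Both background shares cover graded genes of either side, whereas 171 of the 176 that fell are higher in jejunum. A background for that side alone was not computed.

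Of the 66 graded genes that rose, 64 were higher in distal colon than in jejunum. Hsd11b2, which shields the mineralocorticoid receptor from glucocorticoid, gave 1415 units in ileum at 28 months and 431 units at 4 months, 3.28-fold higher, and at least 3593 units in distal colon. Best2, a bicarbonate channel of colonic goblet cells, gave 374 units in ileum at 28 months and 121 units at 4 months, 3.09-fold higher. The transcription factor gene Tfcp2l1 gave 1383 units at 28 months and 441 units at 4 months, 3.14-fold higher. Scd2, a fatty acid desaturase, gave 7895 units at 28 months and 3028 units at 4 months, 2.61-fold higher, and its 3 probe sets differed by 1.06 to 1.66. In distal colon Scd2 gave 13312 units at 28 months and 11166 units at 4 months. Ceacam10, a small member of the carcinoembryonic antigen family, had the largest rise of the graded genes, with 1309 units in ileum at 28 months and 342 units at 4 months, 3.82-fold higher, and in jejunum it gave 843 units at 28 months and a signal below the floor at 4 months. In distal colon Ceacam10 differed by 0.89, and it was the 1 graded gene that rose and was 1.5-fold higher in both neighbours. The rise of graded genes did not reach markers of the distal colon at large. Hoxb13, Hoxd13 and Hoxa13, the hind-end Hox genes, were below the floor in ileum at both ages. Aqp8, a water channel of colonic surface cells, was at 85.0 units at 28 months and 197 units at 4 months, against at least 2479 units in distal colon. Of the 8 measured distal colon markers 2 rose and 2 fell, with a median of -0.14. Of the 56 graded genes that rose and were measured in jejunum, 7 were 1.5-fold higher there (12.5%, against 2.87%). In distal colon 3 of 66 were higher (4.55%, against 4.42%) and 11 were 1.5-fold lower (against 9.13%). These backgrounds too cover graded genes of both sides.

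Of the 242 graded genes past 2-fold, 235 (97.1%) changed in the direction that runs from jejunum to distal colon along the gradient, and 7 in the other direction. This counts direction alone and does not say that the levels came closer. Gcg and Mep1a were above both distal colon arrays at either age and were further above them at 28 months. Of the 7, Car1, a carbonic anhydrase of colonocytes, gave 1107 units in ileum at 28 months and 3049 units at 4 months, 2.75-fold lower, and 6485 units in distal colon at 28 months and 22226 units at 4 months. Car2, another carbonic anhydrase, gave 371 units in ileum at 28 months and 1037 units at 4 months, and the ileum at either age was below jejunum and distal colon alike, further below at 28 months. Saa1 and Saa2, acute-phase proteins made by epithelium that meets bacteria, were others, with Saa1 at 4454 units in ileum at 28 months and 8928 units at 4 months. Nt5e, an ectonucleotidase, fell by 1.18. Slc13a1, a sulfate carrier, rose with 8173 units at 28 months and 4067 units at 4 months, 2.01-fold higher, and Ces1g was the last of the 7.

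Smooth muscle genes were brighter in the 28-month ileum. All 18 smooth muscle markers, of which 17 are graded toward the distal colon, lay above 0 in ileum, with a median of 0.73 and 3 past 2-fold. Their summed signal was 87346 units at 28 months and 55630.4 units at 4 months. Myh11, the smooth muscle myosin, gave 5309 units in ileum at 28 months and 2754 units at 4 months, 7805 units in distal colon at 28 months and 13757 units at 4 months. In distal colon the list had a median of -0.52, and in jejunum 0.13. Kit, the receptor of mast cells and of the pacemaker cells between muscle layers, rose in ileum, with 779 units at 28 months and 382 units at 4 months. Extracellular matrix genes had a median of 0.19, and enteric neuron and glia genes 0.23. Of the 19 matrix genes 13 lay above 0 and 6 below. The member past 2-fold was Fbln1, a matrix glycoprotein, which fell to 552 units in ileum at 28 months, against 1566 units at 4 months, a difference of -1.51. Its other 2 probe sets differed by -1.57 and -0.05. The share of muscle in the tissue pieces, and its part in the other differences, was not tested.

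**Figure D4:**
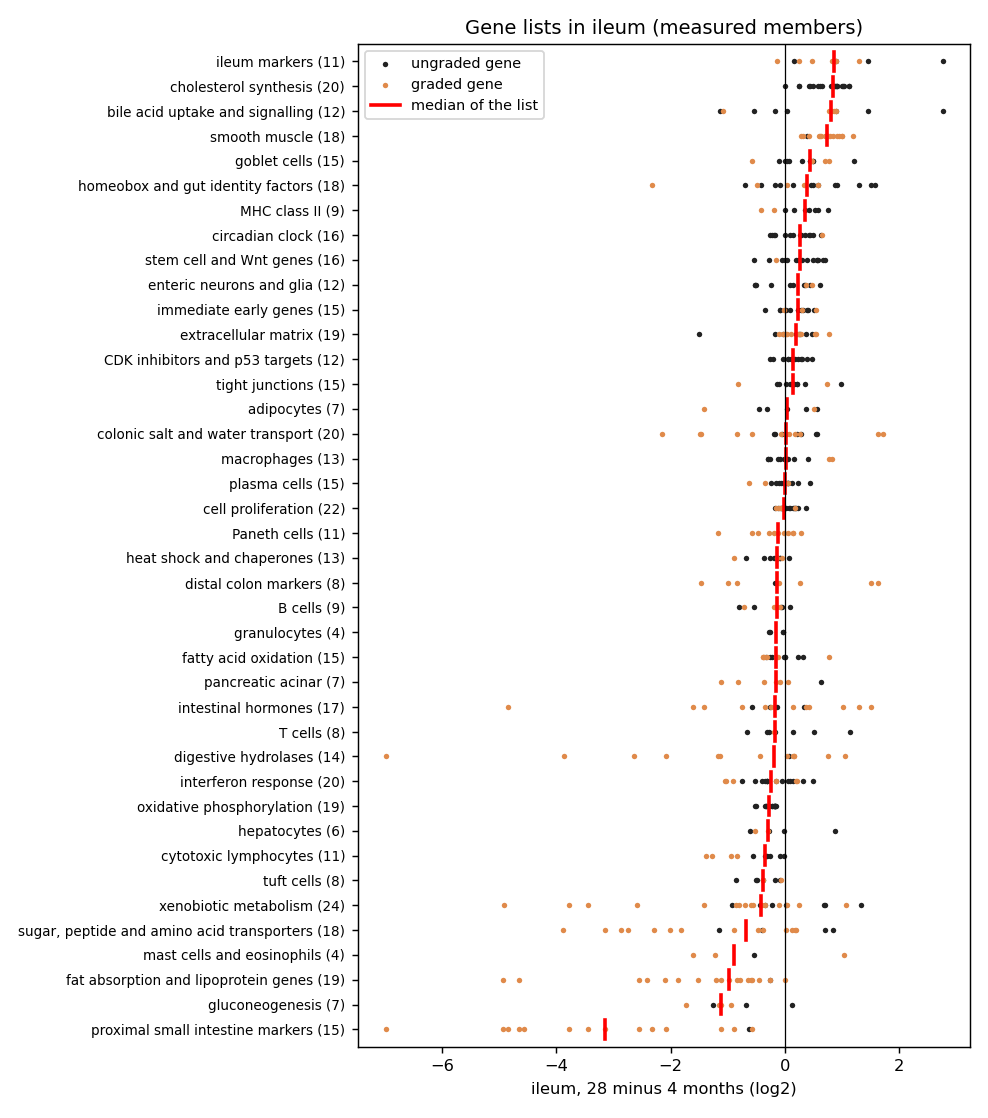
Differences in ileum between 28 and 4 months (log2, horizontal axis) for the measured members of 40 gene lists, in order of median, with the number of measured members in brackets. Black points are ungraded genes, orange points graded genes, and red bars list medians. Medians ran from 0.85 for ileum markers to -3.15 for proximal small intestine markers, and the 20 cholesterol synthesis genes are all black and at or above 0.

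Cell types of the epithelium differed in how their markers moved. Goblet cell genes lay mostly above 0, with a median of 0.45, 13 of 15 above 0 and 1 past 2-fold, Retnlb. Of all measured genes, 46.3% lay below 0. Muc2, the main secreted mucin, gave 22012 units in ileum at 28 months and 15743 units at 4 months, a difference of 0.48, and Atoh1, the factor that commits cells to the secretory fate, differed by 0.78. Paneth cell genes had a median of -0.12 over 11 measured of 20 listed genes. Defa31 was the only alpha-defensin gene among the 11. Defa39, an alpha-defensin gene that is not on the list, fell to 11988 units in ileum at 28 months, against 27006 units at 4 months. Lyz1, the lysozyme of Paneth cells, gave 37497 units at 28 months and 42884 units at 4 months, while the antibacterial lectin Reg3a fell to 4132 units at 28 months, against 9295 units at 4 months. Tuft cell genes were dim and all 8 measured members lay below 0, with a median of -0.39. Their summed signal was 1427 units at 28 months and 2017 units at 4 months. The markers Dclk1, Pou2f3, Il25 and Gfi1b were the 4 members below the floor at both ages. How far the measured members read tuft cells alone was not tested. Ltc4s, which makes leukotriene C4, had the largest difference of the 8 measured, -0.86.

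Among immune cells, cytotoxic lymphocyte and mast cell lists held genes that fell. All 11 measured cytotoxic lymphocyte genes lay below 0, against 46.3% of all measured genes. Their median was -0.35 and their summed signal 2599 units at 28 months and 4637 units at 4 months. The 4 graded members had a median of -1.11 and the 7 ungraded members -0.31. Gzma, granzyme A, gave 597 units in ileum at 28 months and 1441 units at 4 months, 2.41-fold lower, and 3173 units in jejunum at 28 months and 2828 units at 4 months. Gzmb, granzyme B, gave 196 units in ileum at 28 months and 508 units at 4 months, 2.60-fold lower. Both granzymes are graded and were below the floor in distal colon. The mucosal mast cell proteases Mcpt1 and Mcpt2 fell below the floor in ileum at 28 months, against 258 and 338 units at 4 months. Of the 4 measured mast cell and eosinophil genes these 2 fell, Kit rose and Hdc, which makes histamine, differed by -0.55, and 10 more were below the floor at both ages. B cell, plasma cell and macrophage genes had medians of -0.14, -0.01 and 0.01, with no member past 2-fold by the probe set used. The measured probe sets of Ighm, of the plasma cell list, disagreed and ran from -0.48 to 1.51. The highest gave 314 units in ileum at 28 months and 68.8 units, below the floor, at 4 months. Genes of MHC class II had medians of 0.36 in ileum, 0.38 in jejunum and 0.36 in distal colon. Cd74, the invariant chain, gave 6294 units in ileum at 28 months and 4207 units at 4 months. Of the 20 measured interferon response genes none rose and 2 fell, Ifit1, at 559 units at 28 months and 1163 units at 4 months, and the chemokine Cxcl9, at 164 units at 28 months and 334 units at 4 months.

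Probe sets that read the same gene gave an internal check of the array, though they share the pool and the hybridisation. Over the 5259 genes with 2 or more measured probe sets, the median SD of the log2 difference within a gene was 0.13, and 0.35 at the 90th percentile. Of the 314 genes past 2-fold, 110 had 2 or more, and in 74 of the 110 (67.3%) every one moved 1.5-fold or more the same way. Among ungraded genes this held for 7 of 13 that rose, with none on the other side of 0, and for 8 of 15 that fell. Among graded genes it held for 16 of 26 that rose and 43 of 56 that fell. A probe set on the other side of 0 was found in 6 genes. The ungraded ones were Baiap2, in which 1 of 4 probe sets fell and the others lay within 0.06 of 0, and Spata24, at -1.01 and 0.23. The 4 graded ones were Kcnma1, Cklf, 1600014C10Rik and Sulf2. These 6 genes were named after their values were seen.

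**Figure D5:**
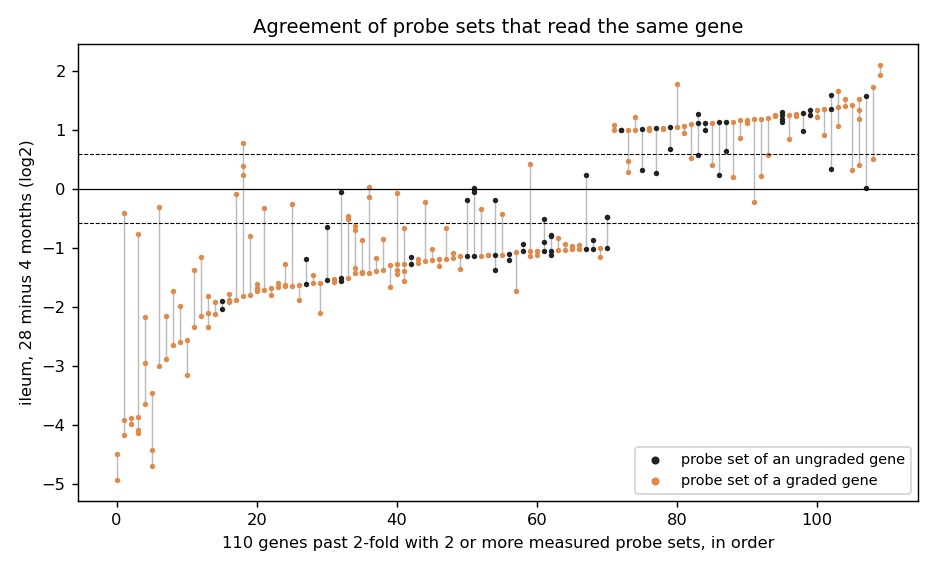
Differences in ileum between 28 and 4 months (log2, vertical axis) of every measured probe set of the 110 genes past 2-fold that have 2 or more, joined by a line per gene and ordered along the horizontal axis. Black points belong to ungraded and orange points to graded genes, and dashed lines mark 1.5-fold. In 74 genes all points lie beyond the same dashed line.

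Tmed4, Abhd17a and Serinc2 were the graded genes nearest to the grading limit and differed by -0.57, -0.02 and 0.14 between ages in ileum. Copz1, Pi4k2b and Shisa5 were the nearest ungraded genes and differed by -0.48, -0.22 and 0.28.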

How the data were processed

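Ileum RNA of 1 pool per age was read on Affymetrix Mouse Genome 430 2.0 arrays, with jejunum, distal colon, liver and spleen on 8 others. The deposited values are the authors' log2 signals per probe set, with a base that was read from their range. The submitters' processing notes name MAS5 and affy, and whether the arrays were normalised further is not given in the sources. Values were unlogged and each array was scaled to a mean signal of 500 with 2% trimmed at either end (factors of 2.42 to 2.57), after which the floor of 111 units was applied. Of 45101 probe sets, 34958 name 1 gene in the platform annotation (symbols from RefSeq GRCm38.p6), 932 name several and 9211 are not in it. Each gene was read from 1 probe set, the brightest by mean log2 signal over the 10 arrays, and counted as measured where that signal passed the floor in ileum at either age.

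Genes named are those with the 15 largest differences per direction among ungraded and graded genes, provided that 1 age reached 2 floors and that all probe sets moved 1.5-fold, up to 5 members per gene list (all of the segment marker, bile acid and cholesterol lists), genes that moved in 3 segments or in opposite directions, and genes at the grading limit. Other genes named were chosen after their values were seen. The comparison, the gene lists and the rules were chosen with earlier results of these data known, so the lists are no independent evidence. The calculation was tested on simulated data. Python 3.11.15, numpy 2.4.6, pandas 2.3.3, statsmodels 0.14.6 and matplotlib 3.10.9 were used. Alternatives covered the floor, scaling, choice of probe set, fold threshold and grading. The number of arrays, 1 per age, limits the precision, and nothing measures the spread between animals.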

Additional observations from a re-analysis of the deposited data

Results flagged for a closer look

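Of the genes past 2-fold in ileum, 10 were past 2-fold the other way in a neighbouring segment. The difference between segments was not tested, since each has 1 array per age. Hoxb3, a Hox gene, had a difference of 1.74 in ileum, with 609.7 units at 28 months and 183 units at 4 months, and 192 units in distal colon at 28 months and 534 units at 4 months. Its second measured probe set differed by 0.50 in ileum. Ddah1, at 1.25 in ileum, gave 225 units in distal colon at 28 months and 509 units at 4 months. Car8, a carbonic anhydrase relative without that activity, was at 1.19 in ileum and gave 349 units in distal colon at 28 months and 1199.6 units at 4 months. Pcp4, a calmodulin regulator, was at 1.10 in ileum and gave 648 units in distal colon at 28 months and 2251 units at 4 months. Ces1g, a carboxylesterase, was at 1.07 in ileum, and distal colon gave 93.8 units at 28 months and 1139 units at 4 months.

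Myom1, a muscle M-band protein, was at 1.05 in ileum, while distal colon gave 568 units at 28 months and 1227 units at 4 months. For the sulfate carrier Slc13a1, at 1.01 in ileum, distal colon gave 44.9 units at 28 months and 304 units at 4 months. Bco1, which cleaves beta-carotene to retinal, was at -1.50 in ileum and gave 227 units in distal colon at 28 months and 104 units at 4 months. The remaining 2 went against the jejunum. Mep1a was at 1.05 in ileum and gave 433 units in jejunum at 28 months and 949 units at 4 months. Gcg was at 1.02 in ileum and gave 454 units in jejunum at 28 months and 994 units at 4 months.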

How the results depend on the processing

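The position of the ileum, with a median shift of 0.25 to 0.29 toward the distal colon, kept its size under each floor, scaling and probe set alternative run. Counts of genes past 2-fold depended on the settings. The 40 ungraded genes that rose became 25 with the floor at percentile 75 of all signals, 282 at 1.5-fold and 2 at 3-fold, and 24 with grading at 1.5-fold and 71 with grading at 4-fold. The 32 ungraded genes that fell became 205 at 1.5-fold and 8 at 3-fold, 16 with grading at 1.5-fold and 87 with grading at 4-fold, and 20 and 54 with grading by the 4-month or the 28-month arrays alone, a difference whose cause was not tested. The 66 graded genes that rose became 19 with the higher floor, 365 at 1.5-fold, 5 at 3-fold and 35 with grading at 4-fold. The 176 graded genes that fell became 112 with the higher floor, 313 at 1.5-fold and 86 at 3-fold. With the higher floor the median of the mast cell and eosinophil list turned to 0.70, fewer of its members being measured, and the tuft cell, B cell and granulocyte lists had no measured member. Of the other list medians under alternatives, 24 moved by more than the median SD between probe sets of a gene and 218 did not. Other scalings placed the median of all genes between -0.01 and 0.05. No paired analysis was possible because each age has 1 array, and for the same reason no replicate could be left out. Genes with a signal near the floor have only bounds.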

Other observations

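Lists with few or no genes past 2-fold also held differences of small size. Circadian clock genes had a median difference of 0.27 over 16 measured members, and Per1, a light-responsive clock gene, gave 745 units in ileum at 28 months and 527 units at 4 months. Immediate early genes had a median of 0.23 and fatty acid oxidation genes -0.16. Heat shock and chaperone genes had -0.14, with 12 of 13 below 0, against 46.3% of all measured genes. None passed 2-fold in these 3 lists. Tight junction genes had a median of 0.13, with Cldn2 at 0.98 and Cldn15, another pore-forming claudin, at -0.82. T cell genes had a median of -0.18 over 8 measured members, of which Il7r rose, and granulocyte genes had a median of -0.15 over 4. Genes of colonic salt and water transport had a median of 0.02, with 2 that rose and 3 that fell. Hepatocyte, pancreatic acinar and adipocyte lists, which check for tissue carried over, had medians of -0.29, -0.16 and 0.04, with 6, 5 and 2 of their genes below the floor at both ages.

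Probe sets without a single named gene were not part of the gene counts. Of 2722 measured in ileum, 45 rose and 21 fell. These are probe sets that name several genes or are not in the annotation. The brighter of the 2 described here gave 15047 units at 28 months and 3203 units at 4 months, a difference of 2.23. The other, with the largest rise, gave 2916 units at 28 months and 181 units at 4 months, a difference of 4.01, and both are ungraded.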
